A study of Homo sapiens with 40 samples.

Results

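H3K4me3, trimethylation of lysine 4 of histone H3, was profiled by ChIP-seq in control and SETDB1 knockout cells, and every H3K4me3 peak on chromosomes 1 to 22 and X was taken. The control list held 56854 peaks and the knockout list 69459, so 126313 of the 614484 peaks of all marks in the series are described. A peak was called kept when it overlapped a peak of the other genotype by at least 1 bp, lost when it was in the control list alone, and new when it was in the knockout list alone. Kept peaks numbered 48369 in the control list and 48504 in the knockout list, with 8485 lost and 20955 new peaks.

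H3K4me3 marks the nucleosomes around active and poised transcription start sites, where it sits beside H3K27ac at active promoters and beside the Polycomb mark H3K27me3 at bivalent ones. It is placed by the SET1 and MLL (KMT2) methyltransferase complexes and removed by the KDM5 demethylases. SETDB1 works on the opposite side: it places H3K9me3, a mark of silent chromatin at repeats and zinc finger gene clusters. Broad H3K4me3 peaks are typical of strongly transcribed promoters, and short ones of weak promoters and enhancers.

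All cells were A549, an established human lung adenocarcinoma line that carries K-RAS G12S. The knockout was made with CRISPR/Cas9 and guides cloned in the PX458 plasmid, and whether the knockout cells were a clone or a pool is not given in the sources used here. Each genotype had 2 H3K4me3 ChIP-seq libraries with MNase-cut chromatin, each tied to an input library, and the same cells had ChIP-seq of H3K27ac, H3K27me3, H3K9me3 and CTCF (2 libraries per genotype), Hi-C (2 libraries per genotype) and RNA-seq (3 libraries per genotype). The antibody label of the knockout H3K4me3 libraries lacks a digit, and these libraries were grouped by the peak list that their description names. There was 1 peak list per genotype and no value per library, so differences between the lists have no replicate error and no test. Intervals in brackets are 95% intervals for counting error only (Wilson for a share, Newcombe for a difference of shares), and neighbouring peaks are not independent. The depth of the ChIP-seq libraries is unknown here, and peak numbers can move with depth and with the caller's threshold.

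RNA-seq libraries held 18065062 to 48364919 counts. SETDB1 RNA (ENSG00000143379, chromosome 1) was at 37.5, 39.6 and 38.7 CPM (counts scaled to library size) in control and 23.4, 21.2 and 21.1 CPM in knockout libraries, with no overlap between genotypes. Its log2 fold change was -0.82 (SE 0.060, edgeR quasi-likelihood adjusted p 1.7e-12), so the transcript was lower but still present. The 5 epithelial markers (KRT8, KRT18, KRT7, EPCAM and CDH1) summed to 4264 to 4767 CPM in control and 10529 to 11406 CPM in knockout libraries. KRT8 was the highest of them, and the sum does not show which of them rose. The 4 blood markers summed to at most 0.517 CPM in any library, with CD3E at 0, and the 4 fibroblast and muscle markers to 5.90 to 7.89 CPM, with COL1A2 at 0. CDH5, an endothelial marker, was at 0.206 to 0.375 CPM in control and 3.83 to 5.21 CPM in knockout libraries. PECAM1, the other endothelial marker listed, was not found by symbol.

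The knockout list was longer than the control list, and most of the gain was in short peaks. The log2 ratio of peak number, knockout to control, was 0.29 (0.27 to 0.30), and that of covered length was 0.20, from 99.6 to 114 Mb. Lost peaks made up 14.9% of control peaks (14.6 to 15.2) and new peaks 30.2% of knockout peaks (29.8 to 30.5). In length the classes weighed less: lost peaks held 6.41% of the control peak length and new peaks 14.9% of the knockout peak length. Kept peaks had a median width of 1312 bp in the control list and 1383 bp in the knockout list. Lost peaks had a median of 653 bp and new peaks of 697 bp, so lost and new peaks were alike in width and both were shorter than kept ones. Under 1 kb lay 83.7% of lost, 79.8% of new and 35.3% of kept control peaks.

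The share of peaks found in the list of 1 genotype alone fell with width at every step. Of control peaks under 500 bp, 44.5% (43.0 to 45.9) were lost, and of those of at least 4 kb, 0.310% (0.185 to 0.520), which is 14 of 4511 peaks. Of knockout peaks under 500 bp, 70.2% (69.0 to 71.3) were new, and of those of at least 4 kb, 1.48% (1.18 to 1.85), which is 73 of 4948. New peaks exceeded lost peaks in each of the 5 width classes. The log2 ratio of peak number was 0.36 under 500 bp, 0.40 from 500 to under 1000 bp and 0.31 from 1 to under 2 kb, and only 0.06 (0.03 to 0.10) from 2 to under 4 kb and 0.13 (0.08 to 0.19) at 4 kb or more. Nearly all broad peaks were thus in both lists, and the lists differed among the short ones.

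**Figure D1:**
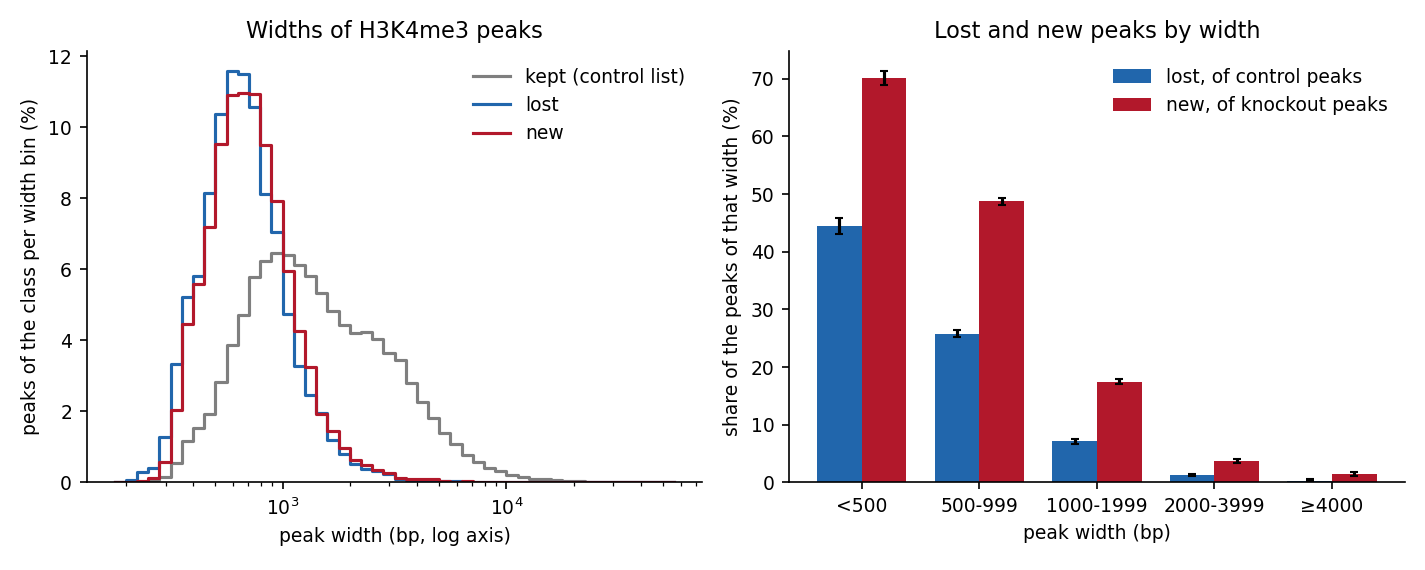
Left, distribution of peak width (bp, log axis) within kept peaks of the control list, lost peaks and new peaks, as percent of the class per bin; right, percent of control peaks that were lost and of knockout peaks that were new in 5 width classes (bars, with 95% Wilson intervals). Lost and new peaks sit together near 653 and 697 bp, and lost peaks go from 44.5% of the shortest control peaks to 0.310% of the broadest.

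Most kept peaks also kept their width. In 45300 cases 1 control peak overlapped 1 knockout peak and neither overlapped another, and the median log2 ratio of width, knockout to control, was 0.046. The overlap took a median of 98.0% of the control peak and 93.7% of the knockout peak. At least 1.5 times wider in knockout were 11.2% of pairs (11 to 11.5) and at least 1.5 times narrower 5.43% (5.23 to 5.64). Width ratios differed between pairs grouped by H3K27ac, the acetyl mark of active promoters and enhancers. The H3K27ac of each genotype was scored over the peak of that genotype, by at least 1 bp. A wider peak could thus overlap H3K27ac that its narrower partner missed, so the groups are not independent of the width ratio. Pairs with H3K27ac in both genotypes had a median log2 width ratio of 0.024, pairs with H3K27ac in knockout alone 0.385, and pairs with H3K27ac in control alone -0.215. Of the pairs with H3K27ac in knockout alone, 35.8% (34.5 to 37.2) were at least 1.5 times wider, and of those with H3K27ac in control alone, 23.5% (21.5 to 25.6) were at least 1.5 times narrower.

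The 2 widest control peaks had knockout partners of nearly the same width. The widest control peak, chr9:75512205-75571059 (hg19), spanned 58.9 kb in an A bin and overlapped H3K27ac in both genotypes, and its knockout partner spanned 60.6 kb. The next, chr8:62580122-62628494, spanned 48.4 kb in control and 48.8 kb in knockout, again with H3K27ac in both. The third widest control peak, chr10:33211802-33252854 (41.1 kb), overlapped 2 knockout peaks, the wider of 36397 bp. The third widest kept knockout peak, chr4:139135915-139181322 (45.4 kb), overlapped 3 control peaks, the widest of 37205 bp. The widest lost peaks were far shorter. They lay side by side on chromosome 11, chr11:3387517-3393706 (6.19 kb) and chr11:3380792-3386699 (5.91 kb), and at chr7:99668104-99673959 (5.86 kb), and all 3 overlapped a control H3K9me3 peak and no control H3K27ac peak. In knockout none of the 3 overlapped H3K9me3, and the widest of them overlapped H3K27ac. The widest new peaks reached broad-domain size. Of these, chr19:23552649-23579079 (26.4 kb) and chr19:23728583-23754553 (26.0 kb) overlapped H3K9me3 in control and H3K27ac in knockout, and chrX:93833846-93857722 (23.9 kb) overlapped H3K27ac and H3K9me3 in knockout and none of the 4 other marks in control. Which genes lie in these regions was not analysed here.

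New peaks were found far more often in the inactive compartment than kept or lost peaks. Hi-C separates the genome into an active A and an inactive B compartment; here a 100 kb bin counts as A when its deposited signal is above 0 and as B when it is below. In control, 6.94% of A length and 0.432% of B length was inside H3K27ac peaks. Shares in B are of the peaks in bins with a value, which leaves out 655 of the 20955 new peaks. By the control compartments, 43.4% of new peaks (42.7 to 44.1) lay in B, against 14.1% (13.8 to 14.4) of kept knockout peaks, a difference of 29.3 percentage points (28.6 to 30.1). Of lost peaks, 22.4% (21.5 to 23.3) lay in B, 8.18 points (7.23 to 9.14) more than kept control peaks. Short peaks lie in B more often, so the classes were also compared among peaks of 500 to under 1000 bp. There, 41.9% of new and 17.7% of kept knockout peaks lay in B, and the lost peaks, at 21.7%, differed from the kept control peaks, at 19.9%, by 1.82 points (0.506 to 3.16).

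The compartments themselves moved, and the order of new and lost peaks depended on which genotype's compartments were used. By the knockout compartments, 28.2% of new (27.5 to 28.8) and 28.5% of lost peaks (27.5 to 29.5) lay in B, a difference of -0.327 points (-1.48 to 0.816), against 15.2% of kept knockout peaks. In bins that went from B to A, the density of H3K4me3 peaks was 11.3 per Mb in control and 33.6 per Mb in knockout, close to the 33.5 per Mb of control bins that were A in both genotypes. The log2 ratio of peak number was 1.58 (1.5 to 1.65) in these bins, 0.60 (0.55 to 0.64) in bins that were B in both, 0.16 (0.15 to 0.18) in bins that were A in both and -0.02 (-0.10 to 0.05) in bins that went from A to B. Bins from B to A made up 5.86% of the bins and held 18.2% of the new peaks, and 70.5% (69.2 to 71.7) of their knockout peaks were new. The lost share of control peaks was 24.4% (22.8 to 26.0) in bins from A to B and 24.7% (23.7 to 25.8) in bins that were B in both. It was 13% (12.7 to 13.3) in bins that were A in both and 9.90% (8.59 to 11.4) in bins from B to A.

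The lower the control compartment signal, the larger was the log2 ratio of peak number. The number of peaks gained was larger in the groups of low signal than in those of high signal, but did not rise at every step. Bins were put in 10 groups of like size by their control signal. In the group with the lowest signal (-1.77 to -0.84) 539 control and 1981 knockout peaks were listed, a log2 ratio of 1.88 (1.74 to 2.02), and 81.8% (80.1 to 83.5) of the knockout peaks were new. The ratio was lower in each following group and was 0.06 (0.03 to 0.10) in the highest, where 16.3% of knockout peaks were new. The lost share also went down, from 31.9% (28.1 to 36.0) in the lowest to 12.5% (11.9 to 13.2) in the highest group. Pairs of kept peaks in bins from B to A were also wider in knockout, with a median log2 width ratio of 0.377, and 32.9% (30.6 to 35.3) of them were at least 1.5 times wider, against 9.74% (9.44 to 10.1) in bins that were A in both.

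**Figure D2:**
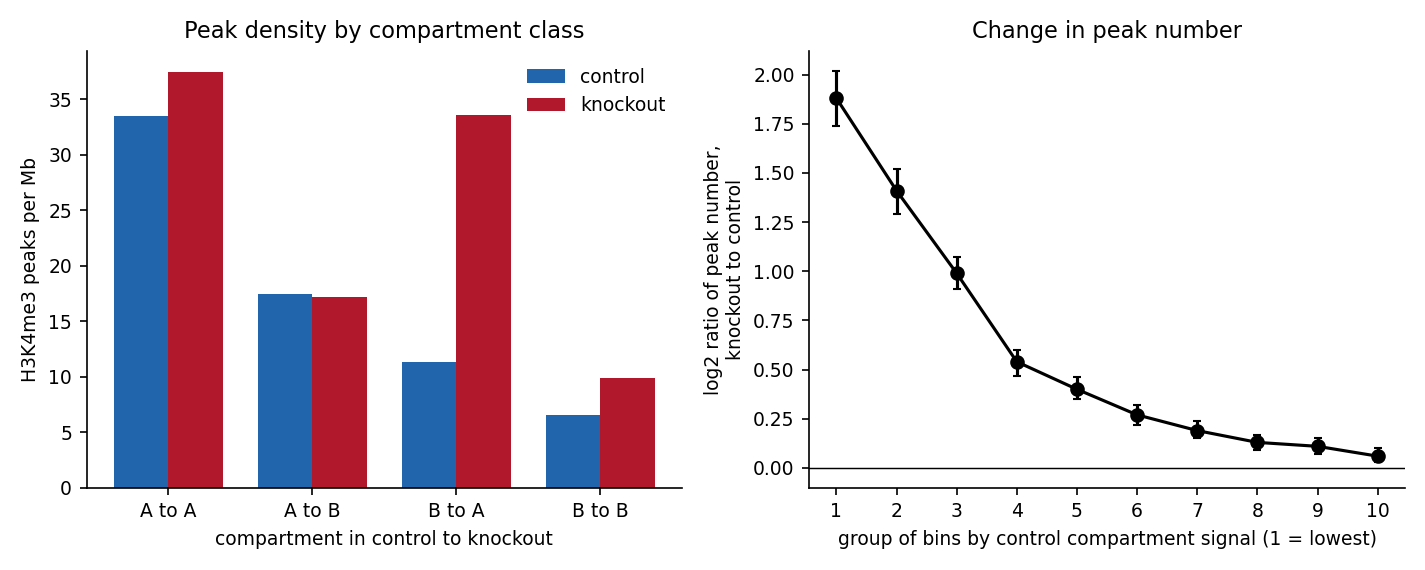
Left, H3K4me3 peaks per Mb in control and knockout in bins grouped by compartment (A or B) in control and in knockout; right, log2 ratio of peak number (points, with 95% intervals for counting error) over 10 groups of 100 kb bins by control compartment signal, the lowest first. Density in bins from B to A goes from 11.3 to 33.6 per Mb, and the ratio goes from 1.88 in the lowest to 0.06 in the highest group.

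The Hi-C replicates give a tested measure in other libraries. The signal of 26496 bins was compared between 2 control and 2 knockout Hi-C libraries with limma, which called 21.6% of all bins higher and 37.3% lower in knockout at an adjusted p under 0.05. Whether the replicates came from separate cultures is not stated, so these calls measure the spread between these libraries. Bins with new and no lost H3K4me3 peaks (8423 bins) had a mean signal of 0.126 and 0.128 in the control and 0.263 and 0.261 in the knockout replicates, and 40.4% (39.4 to 41.5) were called higher. Bins with lost and no new peaks (3638 bins) had means of 0.318 and 0.321 in control and 0.140 and 0.138 in knockout, and 51.2% (49.6 to 52.8) were called lower. Lower calls were common without lost peaks too: 41.4% (40.1 to 42.7) of bins with kept peaks alone and 50.2% (48.9 to 51.4) of bins with no H3K4me3 peak were called lower. The share of lower calls in bins with lost peaks was thus above the share over all bins but close to that of bins without H3K4me3, whereas higher calls were found in 14.4% of bins with kept peaks alone and 9.92% of bins with none.

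Within the control B compartment, bins with new and bins with lost peaks moved apart. Bins with new and no lost peaks (3616 bins) went from means of -0.508 and -0.505 to -0.188 and -0.187, and 62.3% (60.7 to 63.8) were called higher, against 27.1% of all control B bins. Those with 3 or more new peaks (1131 bins) went from means of -0.583 and -0.579 to 0.014 and 0.014, and 86.1% (84.0 to 88.0) were called higher. Control B bins with lost and no new peaks (1162 bins) went from -0.480 and -0.478 to -0.771 and -0.767, and 75.9% (73.4 to 78.3) were called lower, against 42.6% of all control B bins and 55.2% of those with kept peaks alone. In control A bins with new and no lost peaks (4807 bins) the means were 0.603 and 0.605 in control and 0.603 and 0.597 in knockout, with 24.0% called higher and 26.1% lower, against 17.1% and 32.9% of all control A bins. Most bins with lost and no new peaks were in control A (2476 bins). Of these, 39.6% (37.7 to 41.5) were called lower, against 35.9% of control A bins with kept peaks alone. Seen from the Hi-C calls, bins called higher had a log2 ratio of H3K4me3 peak number of 0.86 (0.82 to 0.89), bins not called 0.18 (0.16 to 0.20), and bins called lower 0.03 (-0.00 to 0.06).

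**Figure D3:**
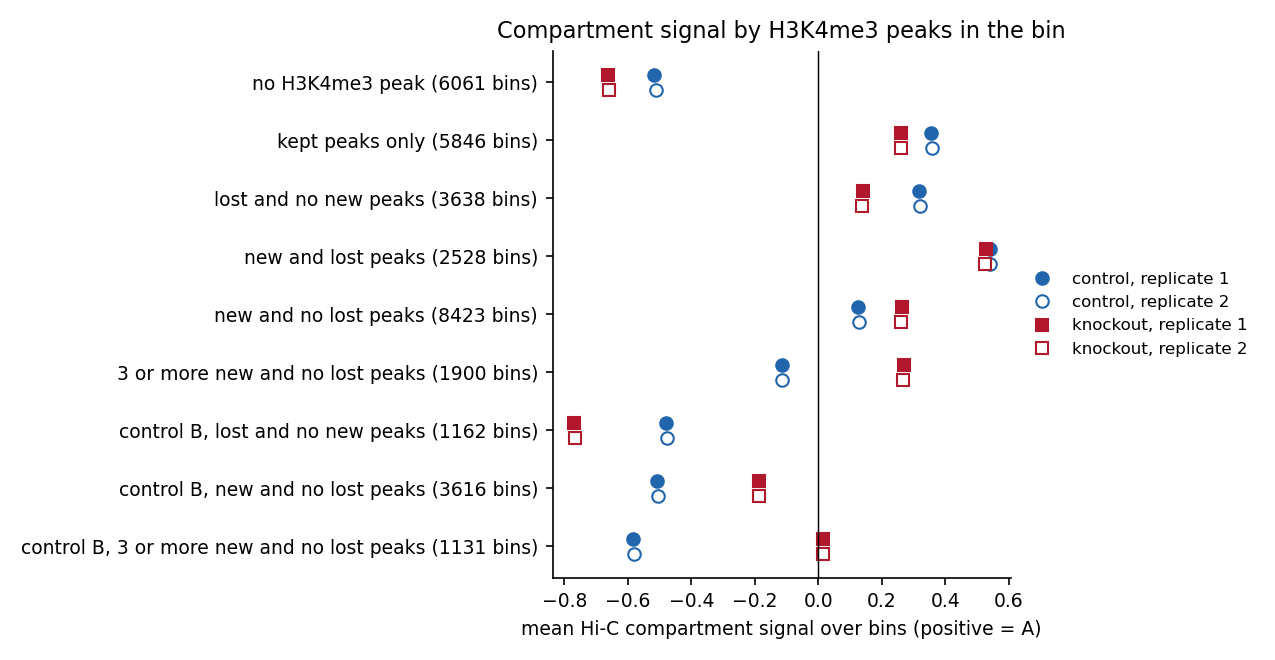
Mean Hi-C compartment signal (x axis; positive is A) in each of the 4 Hi-C libraries (circles, control; squares, knockout; filled, replicate 1; open, replicate 2), for bins grouped by the H3K4me3 peaks they hold. Replicates lie on top of each other; bins with 3 or more new peaks in control B move from -0.583 to 0.014, and bins with lost peaks in control B from -0.480 to -0.771.

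H3K27ac accompanied a minority of the new peaks. Kept peaks overlapped H3K27ac of the same genotype in 65.2% (64.8 to 65.6) of cases in control and 72.3% (71.9 to 72.7) in knockout. New peaks overlapped knockout H3K27ac in 33.2% (32.6 to 33.9), and the same regions overlapped control H3K27ac in 10.1% (9.65 to 10.5). Lost peaks overlapped control H3K27ac in 39.4% (38.3 to 40.4) and knockout H3K27ac in 26.5% (25.5 to 27.4). The share with H3K27ac was thus higher in the genotype that had the H3K4me3 peak, in both directions. Short peaks overlap H3K27ac less often, so peaks of like width were compared. Among peaks of 500 to under 1000 bp, control H3K27ac was found at 40.3% of lost and 38.4% of kept control peaks, a difference of 1.92 points (0.360 to 3.49). For new peaks the gap was smaller in that width class but did not close, at 30.4% of new against 48.4% of kept knockout peaks, a difference of -18.0 points (-19.2 to -16.9).

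New peaks overlapped H3K27ac more often in control A than in control B bins, and so did kept peaks. In control A bins 43.0% (42.1 to 43.9) of new peaks overlapped knockout H3K27ac, and in control B bins 20.4% (19.6 to 21.3). For kept knockout peaks these shares were 76.4% (75.9 to 76.8) and 49.1% (47.9 to 50.3). New peaks with H3K27ac and no H3K27me3 in knockout had a median width of 859 bp, and the 57.5% (56.9 to 58.2) with neither mark had a median of 637 bp. Where control cells already had H3K27ac, 91.0% (89.7 to 92.1) of the 2106 new peaks had H3K27ac in knockout. Of the H3K27ac peaks found in knockout alone, 21.5% (20.9 to 22.1) lay in control B, 21.9 points (21.0 to 22.8) below the share of new H3K4me3 peaks. Kept peaks differed in the same direction: 6.48% (6.24 to 6.72) of kept knockout H3K27ac peaks lay in control B, against 14.1% of kept knockout H3K4me3 peaks. For both marks the share in B was thus higher among new than among kept peaks.

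H3K27me3, the Polycomb mark, overlapped few H3K4me3 peaks of any class. It was found at 6.65% (6.43 to 6.87) of kept peaks in control and 6.76% (6.54 to 6.99) in knockout. Lost peaks overlapped control H3K27me3 in 8.0% (7.44 to 8.60), and among 500 to under 1000 bp peaks they did not differ detectably from kept ones, at -0.0506 points (-0.891 to 0.833). New peaks overlapped control H3K27me3 in 12.6% (12.2 to 13.1) and knockout H3K27me3 in 9.56% (9.17 to 9.96). The order against kept knockout peaks depended on the compartment. In control A, new peaks had 7.77% with control and 5.92% with knockout H3K27me3, and kept knockout peaks 4.01% and 4.92%. In control B, new peaks had 19.4% and 14.2%, and kept knockout peaks 25.7% and 18.5%. Of the 2648 new peaks that overlapped a control H3K27me3 peak, 1323 also overlapped one in knockout while 10.7% (9.60 to 12.0) overlapped knockout H3K27ac. H3K27me3 and H3K27ac together were rare, at 1.22% of kept and 0.310% of new peaks in knockout. In control B, lost peaks overlapped H3K27me3 in 25.4% (23.4 to 27.4) in control and 8.04% (6.89 to 9.38) in knockout. Kept control peaks there did so in 24.2% and 16.9%, and H3K27me3 peaks covered 19.6% and 10.9% of all B length.

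H3K9me3, the product of SETDB1, was found in knockout far more often at lost than at kept peaks. Of lost peaks, 12.8% (12.1 to 13.5) overlapped a knockout H3K9me3 peak, against 1.27% (1.18 to 1.38) of kept control peaks. In control B, knockout H3K9me3 was found at 50.7% (48.4 to 52.9) of lost and 7.33% (6.72 to 7.98) of kept peaks. H3K9me3 peaks covered 49.1% of all control B length in knockout, against 15.6% in control, which is a share of length and not of peaks; the share of lost peaks stood near it and that of kept peaks well below. New peaks overlapped control H3K9me3 in 20.2% (19.6 to 20.7) and knockout H3K9me3 in 4.77% (4.49 to 5.07). The share was lower in knockout at kept knockout peaks too, at 9.67% (9.41 to 9.94) and 1.32% (1.22 to 1.42). Of the 4226 new peaks that overlapped a control H3K9me3 peak, 38% (36.6 to 39.5) overlapped knockout H3K27ac. The largest part of the new peaks, 62.7%, overlapped no control peak of H3K9me3, H3K27me3 or H3K27ac, and 27.5% (26.7 to 28.3) of these overlapped knockout H3K27ac.

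**Figure D4:**
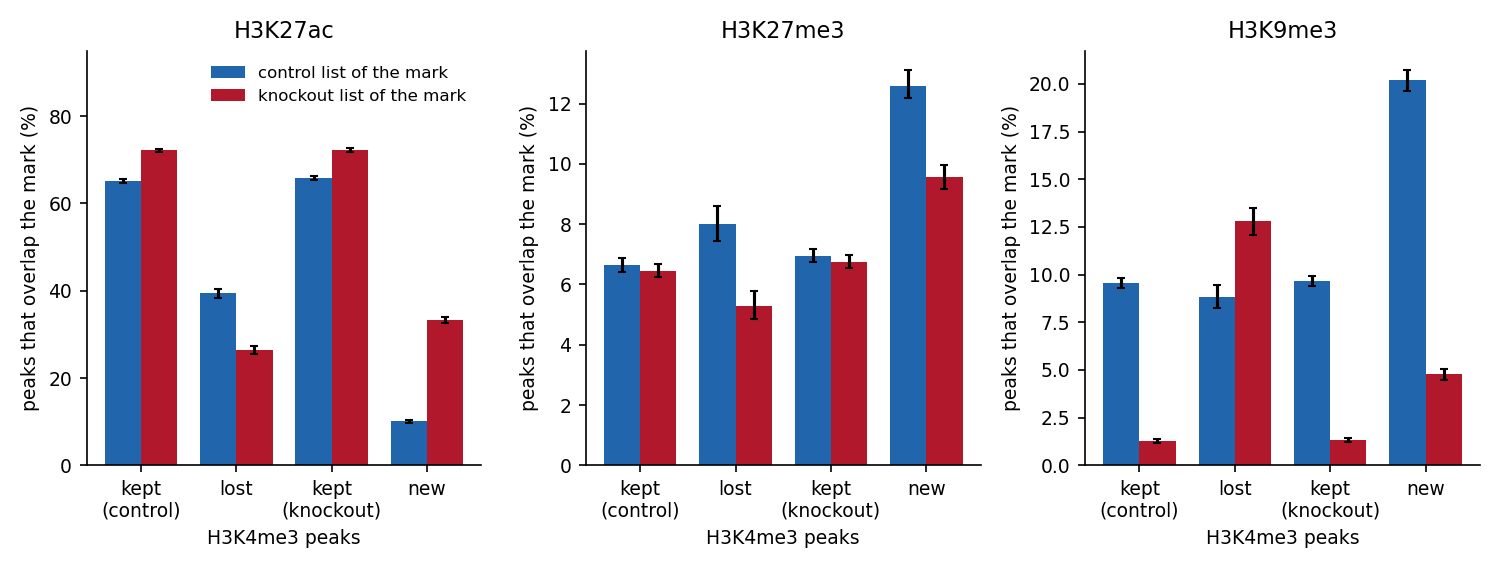
Percent of H3K4me3 peaks of each class (x axis) that overlap, by at least 1 bp, a peak of H3K27ac, H3K27me3 or H3K9me3 in the control or the knockout list of that mark (bars, with 95% Wilson intervals; the y axes differ). New peaks go from 10.1% to 33.2% with H3K27ac, and lost peaks from 8.84% to 12.8% with H3K9me3 where kept control peaks go from 9.56% to 1.27%.

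New peaks stood farther from kept H3K4me3 peaks than lost or kept peaks did, and fewer of them lay at CTCF peaks or domain edges. Distances between new peaks were not measured. The median distance to the nearest other kept peak was 18.7 kb for new, 11.5 kb for lost and 8.40 kb for kept knockout peaks, and 28.4% (27.7 to 29.0) of new peaks lay over 50 kb away, against 10.9% of kept ones. CTCF, the insulator protein found at many promoters and domain borders, overlapped 16.0% (15.7 to 16.3) of kept knockout peaks and 4.03% (3.77 to 4.31) of new peaks in knockout. Among 500 to under 1000 bp peaks the difference was of like size, at -13.0 points (-13.7 to -12.3). An edge of a topologically associating domain of knockout lay within 20 kb of 16.9% (16.6 to 17.2) of kept knockout and 10.3% (9.88 to 10.7) of new peaks.

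The gain was uneven over chromosomes. The lowest log2 ratios of peak number were those of chromosome 22 at -0.04 (-0.17 to 0.08), chromosome 17 at 0.09 (0.02 to 0.17) and chromosome 16 at 0.13 (0.04 to 0.22). The highest were those of chromosome 4 at 0.64 (0.57 to 0.70), chromosome 12 at 0.44 (0.37 to 0.51) and chromosome 13 at 0.43 (0.33 to 0.53). On chromosome 4, 45.5% (44.1 to 47.0) of knockout peaks were new. Its control B bins had a ratio of 1.81 (1.66 to 1.96), with 440 control and 1543 knockout peaks, and its A bins 0.27 (0.19 to 0.34). Chromosome 22, the only one with fewer peaks in knockout, had 995 control and 965 knockout peaks, and its interval includes 0.

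Chromosomes differed in where the new peaks lay. Chromosome 19, rich in zinc finger gene clusters, had 878 new peaks, of which 470 lay in control B bins and 240 in bins with no value. The B peaks were 73.7% of its new peaks in bins with a value and 53.5% of all its new peaks, beside 57.5% and 56.9% on chromosome 4. Chromosome 19 had a ratio of 1.24 (1.05 to 1.43) in B and 0.04 (-0.07 to 0.14) in A. Chromosome 2 had the highest lost share, 19.6% (18.5 to 20.7), and chromosome 12 the lowest, 10.8% (9.73 to 11.9). Kept peak pairs had a median log2 width ratio of -0.013 on chromosome 2 and 0.119 on chromosome 12, and the RNA of their genes had medians of -0.54 (1049 genes, chromosome 2) and 0.37 (854 genes, chromosome 12) as log2 fold changes. Over the 23 chromosomes, the H3K4me3 ratio went with the H3K27ac ratio of peak number (Pearson 0.77, Spearman 0.76, and 0.70 and 0.73 without chromosome 4). It also went with the percent of bins in control B (0.58 and 0.52, and 0.62 and 0.52 without chromosome 4). With the median RNA change there was little relation (0.22 and -0.07). The peak ratios describe 2 pairs of lists from the same cells, and chromosomes share library depth.

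**Figure D5:**
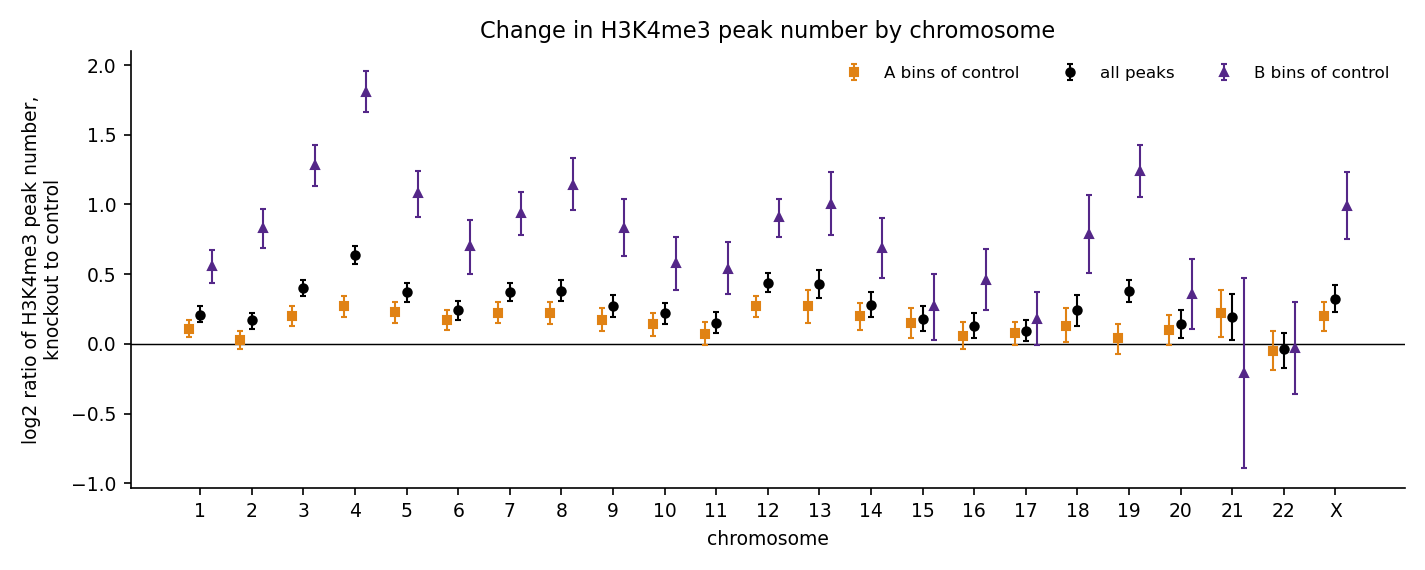
Log2 ratio of H3K4me3 peak number, knockout to control, for each chromosome (circles), and for peaks in control A bins (squares) and control B bins (triangles), with 95% intervals for counting error. By point value B bins lie above A bins on every chromosome except 21 (37 control and 32 knockout peaks in B), and they stand highest on chromosome 4 at 1.81.

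At the scale of 1 Mb, the 5 windows with the most new peaks held 0 to 13 peaks in control and 62 to 98 in knockout. On chromosome 19, the window 23000001 to 24000000 held 4 control and 98 knockout peaks, 94 of them new, its compartment signal went from -0.96 to -0.18, and H3K9me3 peaks covered 90.4% of it in control and 0.923% in knockout. The windows 20000001 to 21000000 (4 and 87 peaks) and 53000001 to 54000000 (13 and 87 peaks) of the same chromosome followed. Next came 115000001 to 116000000 on chromosome 8 (0 and 65 peaks) and 82000001 to 83000000 on chromosome 2 (1 and 62 peaks). H3K9me3 coverage was lower in knockout in all 5 windows, and all 5 had a higher signal, which for the second window rests on 1 bin with a value. Acetylation set these windows apart from each other. The chromosome 19 windows held 72, 55 and 48 knockout H3K27ac peaks, and the windows of chromosomes 8 and 2 held 5 and 6. H3K27me3 coverage did not part them in the same way. It went from 0% to 16.2% and 21.9% in the windows of chromosomes 8 and 2, and on chromosome 19 from 0.119% to 11.4%, from 0% to 0.302% and from 0.296% to 15.2%.

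The windows with the most lost peaks were milder. The window 115000001 to 116000000 of chromosome 12 held 23 control and 6 knockout peaks with 18 lost, its signal went from 0.24 to -1.01, H3K9me3 coverage from 14.8% to 90.0%, and H3K27ac peaks from 24 to 2. The window 33000001 to 34000000 of chromosome 5 (23 and 12 peaks, 16 lost) also changed sign, from 0.40 to -0.22, with H3K9me3 coverage of 15.7% and 30.5%. The other windows, on chromosomes 2 (208000001 to 209000000, 17 lost), 10 (79000001 to 80000000, 16 lost) and 11 (122000001 to 123000000, 16 lost), kept a positive signal and had less H3K9me3 coverage in knockout than in control.

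The RNA of the enzymes that write, erase and read H3K4 methylation changed by small amounts. Of 36 listed genes, all tested, 26 passed an adjusted p under 0.05 in edgeR's quasi-likelihood test (72.2%), beside 62.8% of all 17767 genes tested. Higher in knockout were 17 of them (47.2%, beside 32.8% of all genes) and lower 9 (25%, beside 30.0%). The median log2 fold change was 0.11 over the list and 0.00 over all genes, and none of the 36 passed with a change of at least 2-fold. The share that passed was near that of all genes, and the share higher was above it. In bulk RNA, fewer cells with a transcript and less RNA per cell cannot be told apart. SETD1B, KMT2D, KDM5A and ING4 are on chromosome 12, whose 854 tested genes had 0.37 as their median RNA change (log2). SETD1B (0.76) and ING4 (0.92) were above this median, and KDM5A (0.31) and KMT2D (0.10) below it. ING5 and DPY30 are on chromosome 2, whose median over 1049 tested genes was -0.54. KMT2B (0.16) is on chromosome 19 and was below its median of 0.34 over 1137 tested genes. Whether these genes changed apart from the rest of their chromosome was not tested.

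Among the methyltransferases, 4 of 6 rose and 1 fell. SETD1B, a catalytic subunit of the SET1 complexes, was at 19.1, 23.3 and 22.5 CPM in control and 34.9, 39.6 and 34.0 CPM in knockout, with no overlap (log2 fold change 0.76, SE 0.073, edgeR adjusted p 3.2e-09). Its paralog SETD1A went from 26.0 ± 1.80 to 31.9 ± 2.71 CPM (SD, n = 3; edgeR adjusted p 3.6e-04). KMT2A, which acts with menin at a subset of promoters, fell from 57.8 ± 3.65 to 50.3 ± 2.97 CPM (SD, n = 3; edgeR adjusted p 0.0031). KMT2B (log2 fold change 0.16, edgeR adjusted p 0.0092) and KMT2C (0.15, edgeR adjusted p 0.019) rose, with libraries that overlapped between genotypes, and KMT2D, which like KMT2C places mainly monomethylation at enhancers, had a log2 fold change of 0.10 (edgeR adjusted p 0.13). The calls of KMT2B and KMT2C rest on few libraries. KMT2B had an edgeR adjusted p of 0.055 without control replicate 3 and 0.095 without knockout replicate 2, and KMT2C 0.057, 0.12 and 0.11 without control replicate 2, control replicate 3 and knockout replicate 1. KMT2D passed without control replicate 2 (edgeR adjusted p 0.021).

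The core subunits shared by all SET1 and MLL complexes went mostly the other way, with 3 of 4 lower and 1 higher. WDR5, the scaffold that holds the catalytic subunit, was at 59.0, 58.8 and 64.6 CPM in control and 45.0, 50.2 and 50.9 CPM in knockout (log2 fold change -0.32, SE 0.055, edgeR adjusted p 1.3e-05). All 3 knockout libraries lay below the control libraries. DPY30, 1 of the 3 lower subunits, fell by less (log2 fold change -0.30) than the median of its chromosome 2 (-0.54). Of the 9 subunits particular to some complexes, 2 rose, 2 fell and 5 did not pass. PAXIP1, a subunit of the KMT2C and KMT2D complexes, fell from 27.1 ± 0.794 to 21.5 ± 1.01 CPM (SD, n = 3; log2 fold change -0.34, edgeR adjusted p 2.5e-05).

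All 5 demethylases and the partner RCOR1 passed, 4 of these 6 genes higher and 2 lower. KDM5B, which removes H3K4me3, was at 63.3, 63.5 and 58.4 CPM in control and 80.7, 83.0 and 83.0 CPM in knockout (log2 fold change 0.42, SE 0.048, edgeR adjusted p 1.9e-08), with every knockout library above every control library. KDM5A, of the same family, rose from 126 ± 2.78 to 157 ± 4.28 CPM (SD, n = 3; log2 fold change 0.31, edgeR adjusted p 3.3e-07), and KDM5C by 0.12 on the log2 scale (edgeR adjusted p 0.013, and 0.070 without knockout replicate 2). KDM1A, which removes monomethylation and dimethylation of the same lysine, fell from 136 ± 3.70 to 109 ± 1.25 CPM (SD, n = 3; log2 fold change -0.32, edgeR adjusted p 3.1e-07). Of the 11 readers, 6 rose, 1 fell and 4 did not pass. ING4, a PHD finger protein that binds H3K4me3, had the widest change of the list, from 11.3, 10.4 and 11.4 CPM to 19.6, 21.8 and 21.1 CPM (log2 fold change 0.92, SE 0.074, edgeR adjusted p 1.6e-11). Its paralog ING5 fell from 33.8 ± 2.30 to 26.3 ± 1.19 CPM (SD, n = 3; log2 fold change -0.36, edgeR adjusted p 1.0e-05). The fall of ING5 was smaller than the median of chromosome 2 (-0.54), and the rise of KDM5A smaller than that of chromosome 12 (0.37).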

How the data were processed

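Peak lists of H3K4me3, H3K27ac, H3K27me3, H3K9me3 and CTCF were deposited by the authors as positions alone, 1 list per mark and genotype, on hg19. The submitters' processing notes name Bowtie2 2.2.3, SAMtools 1.5, Picard and MACS2 among their tools, and STAR 2.6.1c and edgeR 3.30.0. Which tool made which file, the peak threshold and whether libraries were pooled are not given in the sources used here. The deposited compartment table holds a signed score per 100 kb bin for each Hi-C replicate and for each genotype, by a method that is not given. The authors deposited whole-number counts per gene. No per-sample column went unmapped (0 columns).

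Peaks were paired by an overlap of at least 1 bp and placed in a bin by their midpoint, with the authors' pooled genotype column for the compartment, in Python 3.11.15 with numpy 2.4.6 and pandas 2.3.3. Bin signals were compared with limma 3.58.1 over 26496 bins. Gene counts, after filterByExpr and TMM scaling, went into the robust quasi-likelihood test of edgeR 4.0.16 (R 4.3.3) with genotype as the only term, and p-values were adjusted by Benjamini-Hochberg over 17767 genes. DESeq2 1.42.0 was an alternative. CPM used TMM-scaled library sizes for genes, and library totals for summed markers. Symbols matched 93.8% of gene IDs, and gene chromosomes came from RefSeq on GRCh38.p14. Both fits were tested on simulated data.

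Genes with values were SETDB1, the 6 methyltransferases, KDM5A, KDM5B, KDM5C, KDM1A and the 8 genes of the list with the largest change among those passing. Regions were the 3 widest peaks of each class, the 5 windows with the most new or lost peaks, and the 3 chromosomes with the lowest and highest ratio; other chromosomes were chosen after their values were seen. The class of peaks and the gene lists were chosen with earlier results of these data known. No sequence or gene annotation of hg19 was used here, and input libraries were not analysed here.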

Additional observations from a re-analysis of the deposited data

How the results depend on the processing

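Peak shares moved with how peaks were paired and filtered. Under a reciprocal overlap of at least 50%, lost peaks were 22.7% of control and new peaks 36.8% of knockout peaks. In the order lost then new, 20.7% and 38.5% lay in B, 44.5% and 40.4% had H3K27ac of their own genotype, and 7.0% and 8.57% had H3K27me3. With peaks within 1 kb merged, the lost share was 14.3%, and the same 3 pairs were 24.5% and 45.1%, 37.1% and 31.9%, and 8.84% and 10.1%. In the wider 50% of each list, where a peak can lose its partner to the width limit, the lost and new shares were 9.91% and 25.8%, and the pairs 10.2% and 32.6%, 76.2% and 70.6%, and 2.88% and 6.46%. With at least 50% of the peak inside the other mark, 37.2% of lost and 30.9% of new peaks had H3K27ac, and 6.07% and 7.57% had H3K27me3. The share in B was 28.5% of lost and 28.2% of new peaks by the knockout compartments, and 20.2% and 42.5% in bins above the 10th percentile of absolute signal. Chosen after seeing the data, peaks of 500 to under 1000 bp gave 41.9%, 30.4% and 9.03% for new peaks in B, with H3K27ac and with H3K27me3. By either control replicate column alone, 22.1% to 22.7% of lost and 42.9% to 43.5% of new peaks lay in B. New peaks lay in B more often than lost peaks under every alternative listed here except the knockout compartments; the cause was not tested.

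Of bins with new and no lost peaks, 38.9% were called higher with columns scaled to the same SD (20.3% of all bins) and 34.4% to 40.0% without a Hi-C library (17.2% to 21.6% of all bins). Of bins with lost and no new peaks, 54.7% were called lower with scaled columns (38.5% of all bins) and 44.1% to 50.6% without a library (30.3% to 36.6% of all bins). Deviations of same-numbered libraries correlated at -0.0018 for Hi-C and at 0.2114, 0.1338 and 0.0709 for RNA-seq. Differently numbered libraries were not compared, so whether replicate numbers pair the RNA-seq libraries is not settled. With the replicate number as a block, these shares were 41.2% and 51.9% (22.2% and 38.1% of all bins), and 29 of the 36 H3K4 methylation genes passed. Without each RNA-seq library in turn, 22 to 26 of these genes passed. Of the named genes, KMT2D passed with the block (edgeR adjusted p 0.043) and without the expression filter (edgeR adjusted p 0.038). No log2 fold change of a named gene changed sign in the alternatives run, and neither did the ratios of the chromosomes with the lowest and highest values. Shares of peaks and bins were not scored for a change of sign. The difference in control H3K27ac, lost minus kept peaks, went from -25.9 points over all widths to 1.92 points among peaks of 500 to under 1000 bp. Log2 ratios by covered length were lower on chromosome 12 (0.35) and chromosome 4 (0.46). The depth of the ChIP-seq libraries was not analysed here, so how it limits the lists of short peaks is unknown.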
